A study of Mus musculus with 8 samples.

Results

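Il1a, Il1b, Il1rn, Tnf, Il6, Il10, Osm, Il27, Csf1 and Nlrp3, a set of cytokine and inflammasome genes chosen for inflammation in myeloid cells, were measured by Seq-Well single-cell RNA-seq in MC38 tumors 24 h after dosing. The 10 genes were taken by name and are 10 of the 24787 genes listed in the count tables, and all 10 were found in every table. MC38 is a mouse colon carcinoma line, grown here under the skin of female C57BL/6J mice aged 8 weeks. The groups were saline (n = 3 tumors), free R848 (n = 3) and medium R848-BPD (n = 2), each given once. R848 (resiquimod) is a small-molecule agonist of TLR7 and TLR8, and the medium R848-BPD, called BPD below, is a bottlebrush polymer prodrug that releases R848 through a linker of intermediate speed. CD45+ and CD45- cells of each mouse were separated and loaded at 9:1, so shares of cells are those of the loaded mixture and not of the tumor. MC38-like cells numbered 111 to 482 per tumor.

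The tables held 10791 cell barcodes, of which 9886 passed the study's cell filters, with 5867590 to 12422614 unique molecular identifiers (UMIs, counted molecules) per tumor. Cells were clustered with the 10 genes and their pathway genes left out, and clusters were named from fixed markers. This gave 5375 monocyte/macrophage-like, 1883 MC38-like, 979 NK-like, 720 DC-like, 610 T-like, 143 osteoclast-like and 126 neutrophil-like cells, with 50 fibroblast-like cells besides. Assigning cells one by one from the same markers gave the same class for 76.7% of cells. A barcode sequence was kept in more than 1 tumor for 56 cells, 50 of them MC38-like and 6 monocyte/macrophage-like. Saline tumor 2 stood apart, with the lowest level among saline tumors of every member but Il27 in monocyte/macrophage-like cells, and results that rest on it are given with and without it. A level is given below as CPM, the UMIs of a gene per 1000000 UMIs of that class in that tumor, always listed in the order of the replicate numbers. Levels were not scaled by transcript length, so they are compared between tumors and classes and not between genes.

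As background, interleukin-1 alpha (Il1a) and beta (Il1b) are agonists of the receptor Il1r1, whereas the product of Il1rn occupies the same receptor without signaling and so acts as a natural antagonist. NLRP3 is the sensor of an inflammasome, a complex that activates caspase-1 to cut the inactive precursor of interleukin-1 beta. TNF, interleukin-6 and oncostatin M (Osm) are inflammatory cytokines, interleukin-10 restrains macrophages and DCs, and Il27 encodes the p28 subunit that pairs with EBI3 to form interleukin-27. CSF1 is the growth factor on which macrophages depend. TLR7 engages NF-kB, the transcription factor family that acts at promoters of many of these genes. Measured RNA is not secreted or processed cytokine.

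All 10 are protein-coding genes. On the GRCm38 assembly, the 3 interleukin-1 genes share chromosome 2, with Il1a at chr2:129299610-129309972(-), Il1b at chr2:129364570-129371139(-) and Il1rn at chr2:24336853-24351494(+). The remaining members are spread over other chromosomes, with Tnf at chr17:35199381-35202007(-), Il6 at chr5:30013114-30019981(+), Il10 at chr1:131019845-131024974(+), Osm at chr11:4236420-4241026(+), Il27 at chr7:126589010-126594941(-), Csf1 at chr3:107741048-107760469(-) and Nlrp3 at chr11:59541568-59566956(+). The 250 bases before the start of 3 members are shown because in DC-like cells Il6 rose and Il1b fell after BPD relative to saline, and Il1rn is the antagonist set against Il1b. The sequences are from RefSeq on GRCm38.p6, 5′ to 3′ on the strand of the gene, and capitals mark motif matches found by a script. RefSeq promoters were matched for 7 of the 10 members (none for Il10, Osm and Il27), and the first of 3 Il1rn starts is shown.
The windows lie just upstream of the RefSeq start site, at chr5:30012864-30013113(+) for Il6, chr2:129371140-129371389(-) for Il1b and chr2:24336610-24336859(+) for Il1rn.
Il6: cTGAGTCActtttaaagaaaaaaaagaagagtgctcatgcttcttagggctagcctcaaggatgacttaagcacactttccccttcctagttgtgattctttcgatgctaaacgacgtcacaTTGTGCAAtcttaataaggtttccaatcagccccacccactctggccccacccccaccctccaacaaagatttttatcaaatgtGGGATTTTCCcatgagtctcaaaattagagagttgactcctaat
Il1b: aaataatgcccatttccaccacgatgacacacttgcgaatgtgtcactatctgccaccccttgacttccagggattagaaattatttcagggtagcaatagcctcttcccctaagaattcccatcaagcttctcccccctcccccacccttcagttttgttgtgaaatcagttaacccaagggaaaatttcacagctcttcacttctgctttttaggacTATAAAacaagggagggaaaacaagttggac
Il1rn: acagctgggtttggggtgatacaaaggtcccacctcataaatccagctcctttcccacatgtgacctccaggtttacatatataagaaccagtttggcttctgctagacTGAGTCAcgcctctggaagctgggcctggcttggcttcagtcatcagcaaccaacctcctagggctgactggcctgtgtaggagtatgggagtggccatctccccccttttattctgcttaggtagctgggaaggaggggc
In Il6 the capitals are, from left to right, an AP-1 match at -249, a C/EBP match at -128 on the opposite strand and a kappaB match at -44, all counted from the start site. In Il1b they are a TATA box match at -31, and in Il1rn an AP-1 match at -141. The motifs searched on both strands were kappaB (by name), the TATA box TATAAA, AP-1 TGANTCA, C/EBP TTGCNNAA, STAT TTCNNNGAA and the ISRE (by name), and no match in the windows of the members overlapped another. Of 32851 promoter windows of the same length, 7.25% held kappaB, 7.59% TATAAA, 6.75% TGANTCA, 9.56% TTGCNNAA, 7.02% TTCNNNGAA and 2.98% the ISRE. Outside the 3 sequences shown, kappaB matches lay at -154 in Csf1 and -186 in Nlrp3, TATA box matches at -32 in Il1a and -29 in Tnf, and an AP-1 match at -12 in Il1a. A match describes the letters in the window and says nothing of use in these cells.

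Neutrophil-like cells carried the highest median level of 7 of the 10 members, Il1a, Il1b, Il1rn, Tnf, Osm, Il27 and Nlrp3, although only the 5 R848-treated tumors held enough of them (at least 10 cells) to give a level. For Il1b, the level was 8789, 8873 and 15581 CPM in neutrophil-like cells of the 3 free R848 tumors and 8891 and 6845 CPM in those of the 2 BPD tumors. DC-like and monocyte/macrophage-like cells came next for Il1b, with medians of 3144 and 2529 CPM over the 8 tumors and overlapping ranges. Both lay above T-like (988 CPM), MC38-like (130.1 CPM) and NK-like cells (77.6 CPM). Il1a was also highest in neutrophil-like cells, with 894 CPM in neutrophil-like and 62.6 CPM in monocyte/macrophage-like cells, and the 2 ranges did not overlap. The same separation was seen for Nlrp3, at 1082 against 234 CPM. For Il27 the ranges of neutrophil-like cells and the next class overlapped, the lead rested on R848-treated tumors only, and in the BPD tumors DC-like cells had the higher level (84.02 and 70.2 against 10.7 and 25.2 CPM). For Il1rn, Tnf and Osm, the range in monocyte/macrophage-like cells overlapped that in neutrophil-like cells.

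The other 3 members did not follow this order. Il10 was highest in monocyte/macrophage-like cells (33.2 CPM), with a range that overlapped that of neutrophil-like cells. Il6 was highest in fibroblast-like cells, at 187 and 287 CPM in the 2 BPD tumors, the only tumors with at least 10 such cells. Its median was 26.3 CPM in DC-like and 4.64 CPM in monocyte/macrophage-like cells, and Il6 was listed at 0 in neutrophil-like cells of all 5 tumors. Csf1 was led by fibroblast-like (520.4 CPM), neutrophil-like (419 CPM) and MC38-like cells (202 CPM), with only 11.7 CPM in monocyte/macrophage-like cells.

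**Figure D1:**
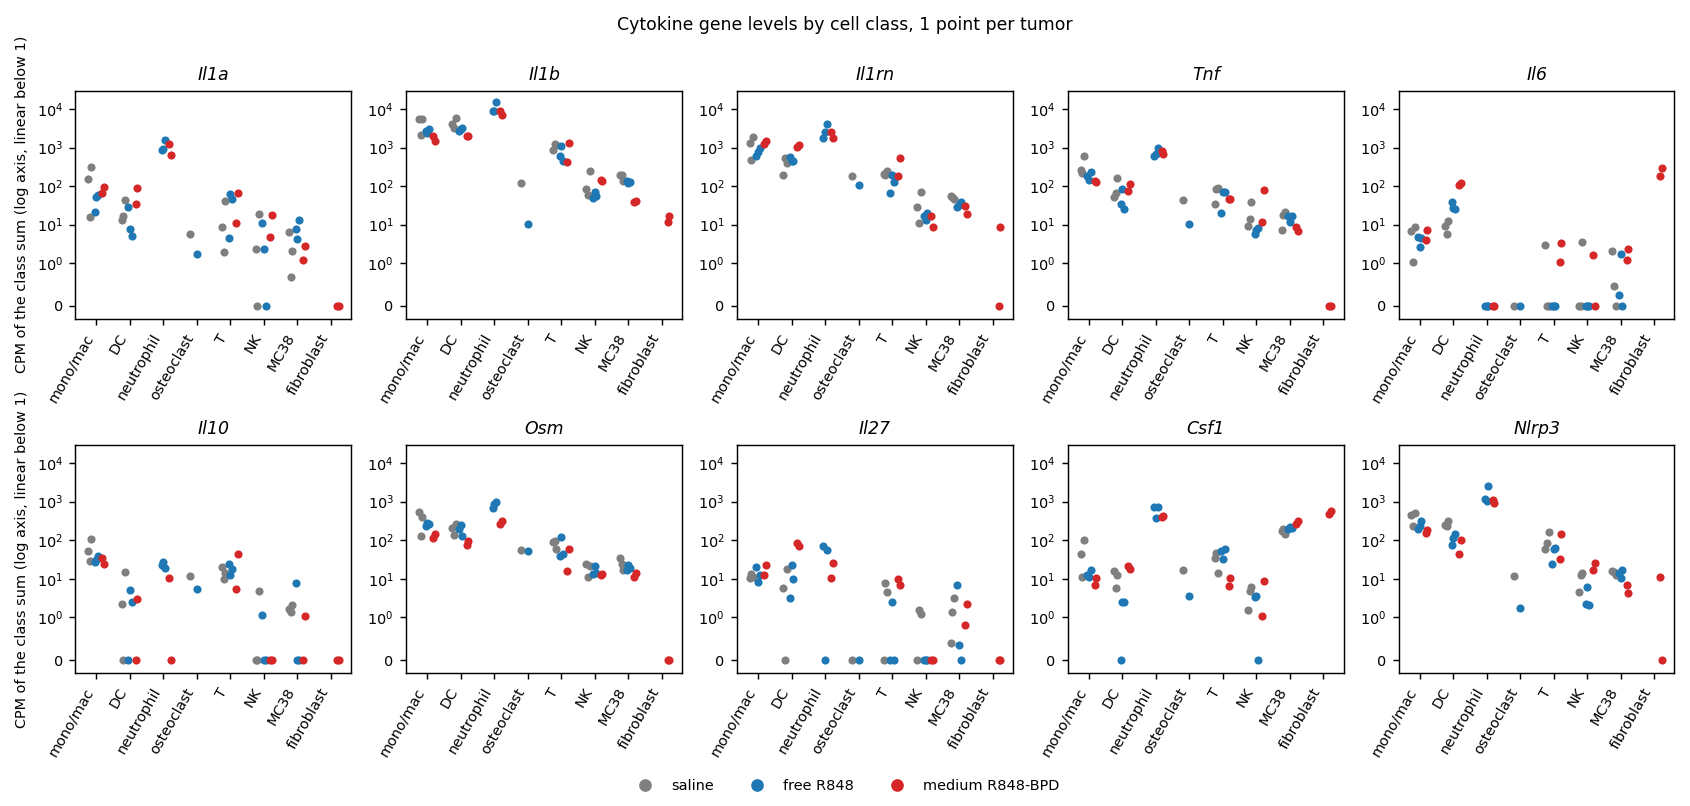
Level of the 10 members by cell class, as CPM on a log axis that is linear below 1, with 1 point per tumor colored by treatment. Neutrophil-like cells lead for Il1b (median 8873 CPM), fibroblast-like cells for Il6 (median 237 CPM) and Csf1 (median 520.4 CPM).

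Monocyte/macrophage-like cells were 54.4% of all cells kept and held most of the UMIs of 8 members: 90.1% for Il10, 85.5% for Il1rn, 84.5% for Tnf, 81.8% for Nlrp3, 81.4% for Osm, 79.8% for Il1b, 74.3% for Il1a and 68.5% for Il27. Csf1 and Il6 were the exceptions. MC38-like cells held 78.7% of all Csf1 UMIs and monocyte/macrophage-like cells 10.4%. For Il6 the UMIs were divided among DC-like (35.8%), monocyte/macrophage-like (31.2%) and fibroblast-like cells (24.7%). The 2 BPD tumors held 11 and 28 of the 50 fibroblast-like cells. Csf1 was thus not mainly a myeloid transcript in these libraries. These percentages are of the loaded mixture of cells.

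In monocyte/macrophage-like cells, no member passed the test for any pair of treatments, yet the members did not lie together: after BPD, Il1b, Tnf, Osm and Nlrp3 were at the low end of all tumors, whereas Il1rn was not. Tests were edgeR quasi-likelihood F tests on UMIs summed per tumor, with Benjamini-Hochberg adjustment over all genes tested and a call at an adjusted p under 0.05. Fold changes are from that fit, which scales the libraries by TMM, and can differ slightly from ratios of the CPM values. For BPD over free R848, 0 of 10 members were called, against 1.59% of the 10590 genes tested, and 0 had an unadjusted p under 0.05, against 14.2% of genes. For free R848 over saline, 0 of 10 were called, against 0.0189% of genes, and 2 had an unadjusted p under 0.05, against 11.5%. For BPD over saline, 0 of 10 were called, against 7.03% of genes, and 5 had an unadjusted p under 0.05, against 24.6%. DESeq2 called 0, 0 and 4 members in these 3 comparisons, against 3.46%, 0.359% and 8.96% of genes, the 4 being Il1b, Nlrp3, Osm and Tnf.

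Il1b was at 5388, 2172 and 5375 CPM in the saline tumors, 2638, 2419 and 3022 after free R848 and 1939 and 1461 after BPD. The 2 BPD tumors were the lowest of the 8, and saline tumor 2 lay far below the other 2 saline tumors. In the fit its log2 fold change was -0.64 ± 0.38 (SE, adjusted p = 0.504) for BPD over free R848 and -1.34 ± 0.39 (SE, adjusted p = 0.0755) for BPD over saline.

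Il1rn, the antagonist, was at 1333, 482 and 1902 CPM in the saline tumors, 592, 761 and 971 after free R848 and 1216 and 1440 after BPD. Both BPD tumors were above all 3 free R848 tumors and inside the range of the saline tumors. Its fold change on the log2 scale was 0.81 ± 0.49 (SE, adjusted p = 0.503) for BPD over free R848 and 0.11 ± 0.49 (SE, adjusted p = 0.918) for BPD over saline. Il1a, the other agonist, was at 150.1, 15.3 and 307 CPM in the saline tumors, 20.9, 53.1 and 60.3 after free R848 and 64.8 and 95.3 after BPD, with the widest spread among saline tumors. Its log2 fold change was 0.88 ± 0.93 (SE, adjusted p = 0.74) for BPD over free R848.

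Tnf was at 254, 222 and 612 CPM in the saline tumors, 184, 145 and 229.6 after free R848 and 136 and 131 after BPD. Both BPD tumors were below every other tumor, by a small margin from the lowest free R848 tumor. On the log2 scale the change was -1.43 ± 0.45 (SE, adjusted p = 0.0916) for BPD over saline and -0.44 ± 0.43 (SE, adjusted p = 0.714) for BPD over free R848. Nlrp3, the inflammasome sensor, was at 450.4, 231 and 501 CPM in the saline tumors, 199, 237 and 314 after free R848 and 152 and 184 after BPD. It was again lowest in the 2 BPD tumors, with a log2 fold change over saline of -1.21 ± 0.36 (SE, adjusted p = 0.0816). Osm was at 551, 132 and 407 CPM in the saline tumors, 228, 283 and 261 after free R848 and 112 and 142 after BPD, and the BPD tumors lay below all 3 free R848 tumors while saline tumor 2 lay between them. Its log2 fold change was -0.98 ± 0.50 (SE, adjusted p = 0.428) for BPD over free R848 and -1.51 ± 0.51 (SE, adjusted p = 0.112) for BPD over saline.

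Csf1 was at 43.7, 11.02 and 99.5 CPM in the saline tumors, 12.2, 11.2 and 17.1 after free R848 and 6.98 and 10.7 after BPD, so that saline tumors 1 and 3 stood above the other 6. Its log2 fold change for BPD over saline was -2.54 ± 0.83 (SE, adjusted p = 0.102). Il10 was at 51.3, 29.4 and 105 CPM in the saline tumors, 27.1, 30.95 and 39.5 after free R848 and 35.4 and 23.6 after BPD, and the groups overlapped. Il6 was at or below 8.54 CPM and Il27 at or below 23.2 CPM in every tumor, with overlapping groups. A count of 3 UMIs corresponded to 0.459 to 1.14 CPM in this class, and Il6 rested on 7 to 29 UMIs per tumor.

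**Figure D2:**
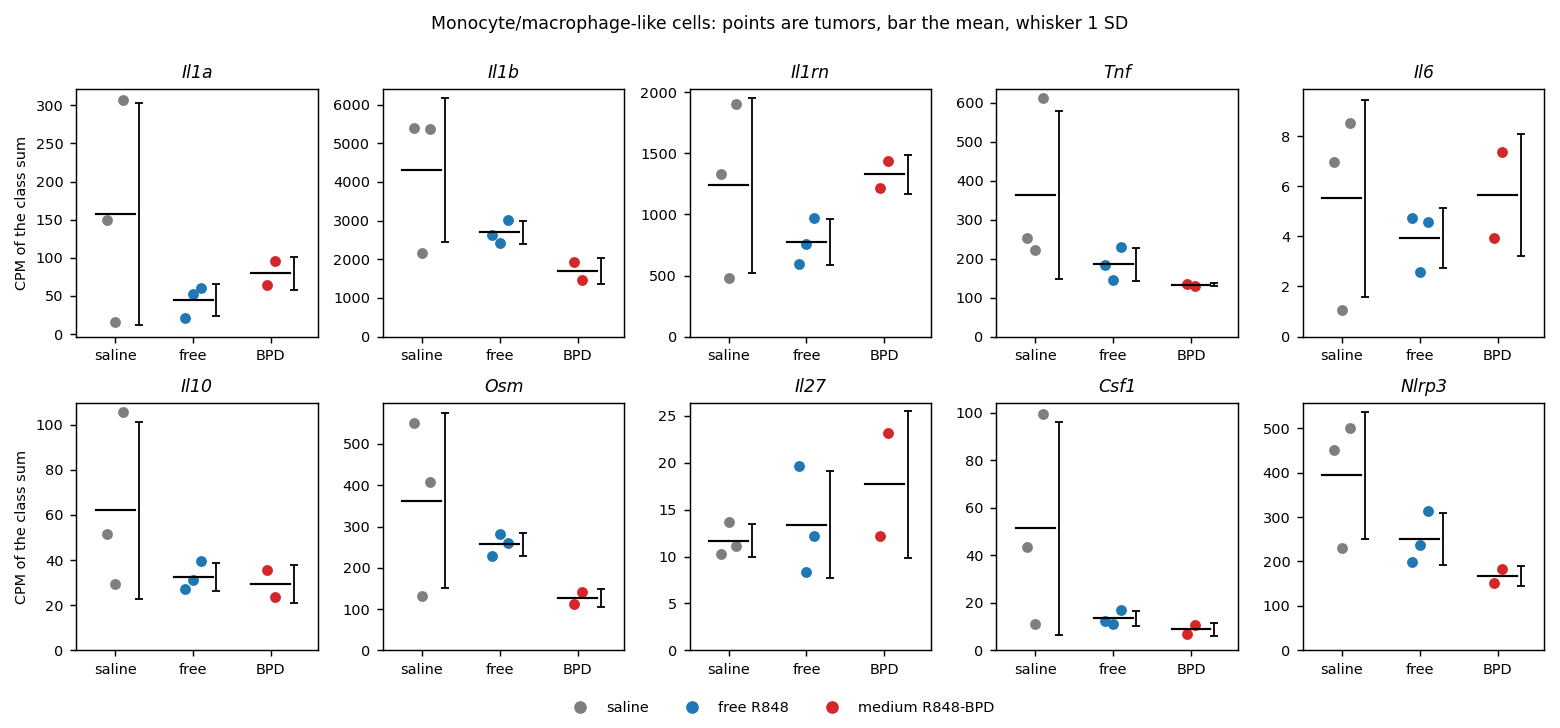
Level of the 10 members in monocyte/macrophage-like cells, as CPM, with 1 point per tumor, a line at each group mean and a whisker of 1 SD. The 2 BPD tumors are the lowest of the 8 for Il1b, at 1939 and 1461 CPM, and lie above the 3 free R848 tumors for Il1rn, at 1216 and 1440 CPM.

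Over the 10 members the median log2 fold change was -0.26 for BPD over free R848, -0.70 for free R848 over saline and -1.11 for BPD over saline, against -0.01, -0.0023 and -0.01 over all genes tested. The comparisons with saline share the saline tumors. Without saline tumor 2, 1 member was called for BPD over free R848 (Osm, -0.99, adjusted p = 0.0158), 4 for free R848 over saline and 6 for BPD over saline. In that fit 5.58%, 1.15% and 11.8% of all genes were called. Saline tumor 2 was set apart by its low levels of these same members, so leaving it out raises their saline levels by choice. The calls in this fit are thus descriptions and no support. The 4 were all lower after free R848, namely Csf1 (-2.47), Il1a (-2.41), Il1b (-1.04) and Osm (-0.94) on the log2 scale. The 6 were all lower after BPD, namely Csf1 (-3.08), Osm (-1.93), Tnf (-1.71), Il1b (-1.68), Nlrp3 (-1.51) and Il10 (-1.37). The 8 neutrophil markers of this class summed to 38.4 to 83.1 CPM in saline, 55.9 to 84.3 after free R848 and 79.8 to 88.3 after BPD, and the 8 monocyte markers to 910.4 to 3878, 2894 to 3845 and 1592 to 2012 CPM, and their part was not tested. With every gene kept in the fit regardless of count, 4, 7 and 7 members were called in the 3 comparisons, against 4.53%, 2.67% and 8.42% of all genes.

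**Figure D3:**
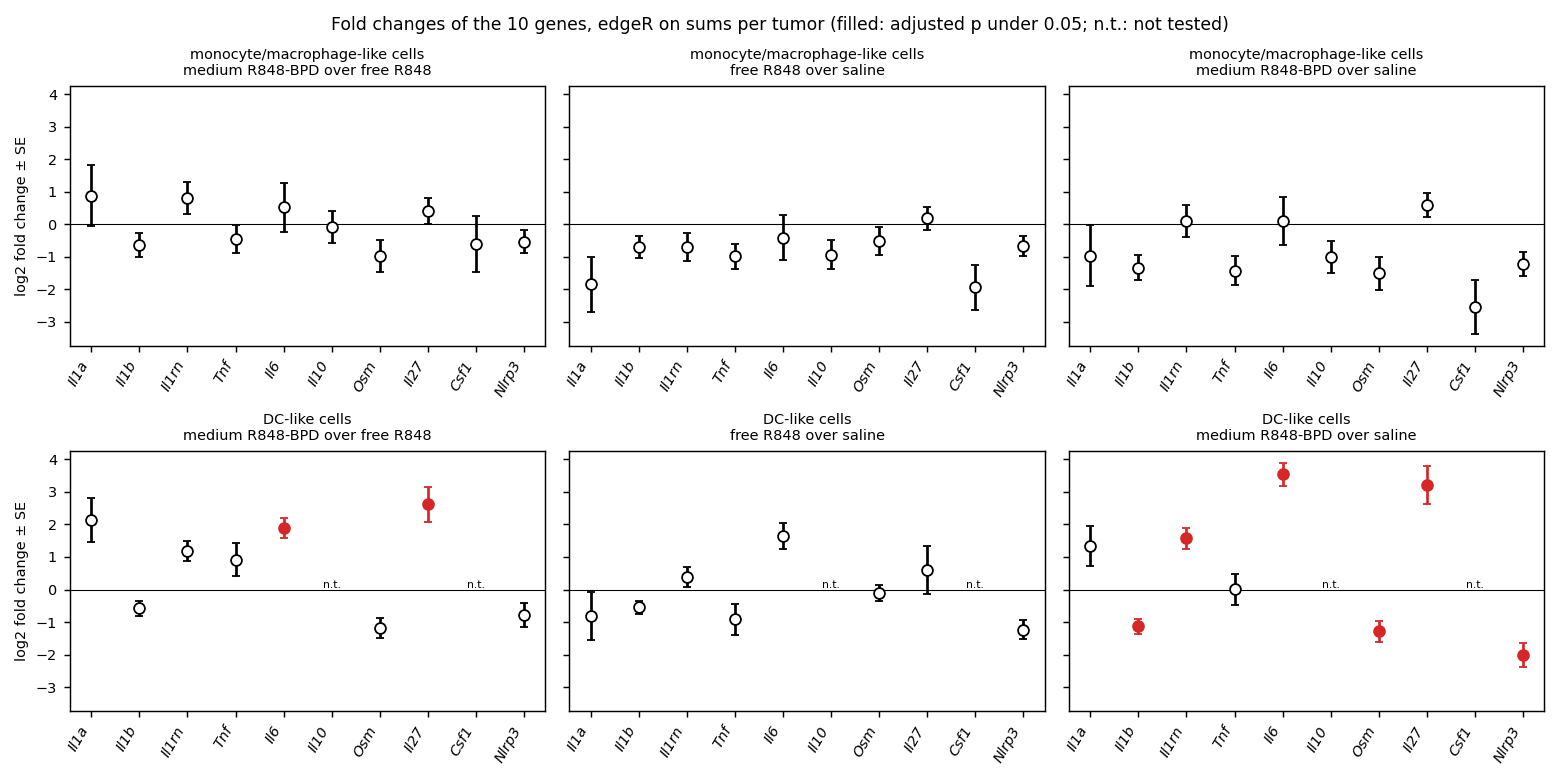
Log2 fold change of each member tested, with its standard error, for the 3 treatment comparisons in monocyte/macrophage-like and DC-like cells (n.t., not tested); filled red points have an adjusted p under 0.05. Calls are seen in DC-like cells (2 for BPD over free R848, 6 for BPD over saline), and these counts include Il6 and Il27, which passed the filter on low counts only through the BPD tumors.

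The share of monocyte/macrophage-like cells in which a member was detected was compared after every cell had been thinned to 1000 UMIs, which left out 34 saline, 8 free R848 and 2 BPD cells. Il1b was detected in 67.2% ± 11.1 of cells in saline tumors (mean ± SD over tumors, n = 3), 62.9% ± 6.1 after free R848 (n = 3) and 43.6% ± 5.7 after BPD (n = 2). In NK-like cells, which served as the background of free RNA, the group means were 3.96% to 5.08%. Group means were 15.9% to 23.9% in T-like and 4.73% to 14.6% in MC38-like cells, so the NK-like background is at the low end. Il1rn was detected in 51.2% ± 17.6, 40.9% ± 5.9 and 50.9% ± 3.2 of cells, respectively. Fewer cells had a UMI of Tnf (23.3% ± 9.2, 15.3% ± 2.5 and 9.4% ± 1.8), Osm (26.0% ± 12.6, 22.0% ± 1.2 and 9.9% ± 0.8) and Nlrp3 (30.9% ± 8.3, 21.4% ± 2.0 and 15.4% ± 1.9). With 2 against 3 or 3 against 3 tumors, a two-sided exact permutation test cannot give a p below 0.1. Of 30 such tests (10 members, 3 comparisons), 5 reached 0.1, among them BPD against free R848 for Il1a, Il1b, Osm and Nlrp3, and the lowest Benjamini-Hochberg adjusted p was 0.429.

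The antagonist and the agonists were then set against each other within each library, as the log2 ratio of Il1rn UMIs to the sum of Il1a and Il1b UMIs, in which sequencing depth cancels. In monocyte/macrophage-like cells it was -2.05, -2.18 and -1.58 in the saline tumors, -2.17, -1.70 and -1.67 after free R848 and -0.72 and -0.11 after BPD. Both BPD tumors stood above all 6 other tumors, and saline tumor 2, although the lowest of the saline tumors in each gene of the ratio, lay with the other saline tumors. In counts, there were 60.7 and 92.5 Il1rn UMIs per 100 agonist UMIs in the BPD tumors, 22.2, 30.8 and 31.5 in the free R848 tumors and 24.1, 22.04 and 33.5 in the saline tumors. The difference of means was 1.43 for BPD over free R848 (exact permutation p = 0.1, the smallest this design can give; 0.15 after Benjamini-Hochberg adjustment over 3 comparisons), 1.52 for BPD over saline (exact permutation p = 0.1) and 0.09 for free R848 over saline (exact permutation p = 0.9). Over the alternatives run, the first ranged from 1.12 to 1.73 and the second from 1.22 to 1.83. A ratio of UMIs is not a ratio of protein, and only its differences between tumors are described.

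The monocyte/macrophage-like class was made of different clusters in the 3 groups. In BPD tumors, 39.5% of the class was a cluster led by Saa3 (0.1% in saline, 1.6% after free R848) and 25.6% a cluster led by Mmp12 (5.5% and 8.5%). A cluster led by Apoe made up 19.7% of the class in saline tumors, 20.3% after free R848 and 1.1% after BPD. A monocyte cluster led by Chi3l3 made up 15.5%, 12.2% and 0.0817% of the class, respectively, and had 634 CPM of Osm and 5962 CPM of Il1b with all tumors pooled. A cluster led by C1qc, with 1629 CPM of Il1b, held 473 of the 949 cells of saline tumor 2 and 25 and 18 cells of saline tumors 1 and 3. The part of these clusters in the class levels was not tested. The ratio could be compared within clusters that held at least 10 cells in both groups. It was higher after BPD than after free R848 in 9 of 9 such clusters and higher than in saline in 7 of 7, of 11 clusters in all, with cells of a group pooled and no test made. In the Mmp12 cluster it was -1.46 in saline, -1.37 after free R848 and 0.14 after BPD. In the Saa3 cluster it was -2.19 after free R848 and -1.66 after BPD. The largest value was 2.33, in a cluster led by Ccl8 and Ccl6, where saline cells gave -0.97 and free R848 cells -1.64.

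**Figure D4:**
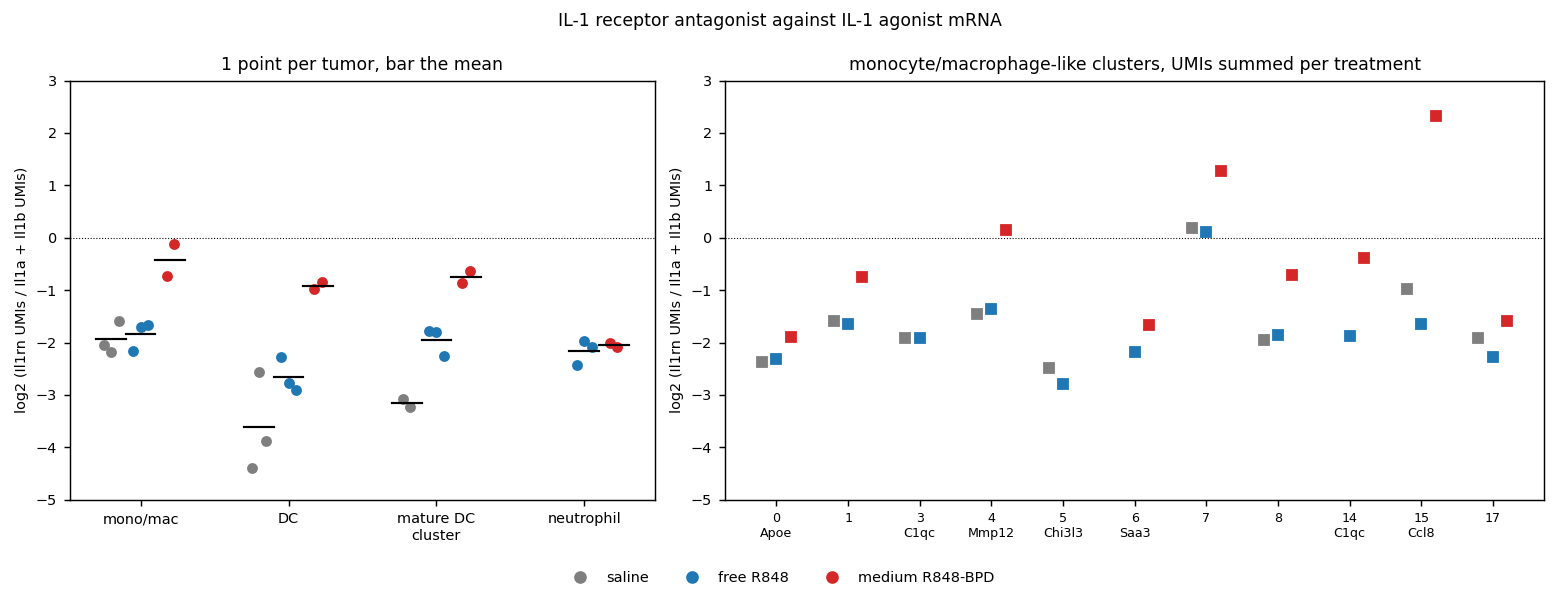
Log2 ratio of Il1rn UMIs to Il1a plus Il1b UMIs, on the left with 1 point per tumor and a line at each group mean in monocyte/macrophage-like cells, DC-like cells, the mature DC cluster and neutrophil-like cells, and on the right with UMIs summed per treatment in each monocyte/macrophage-like cluster, numbered and, where named in the text, with its top gene. In monocyte/macrophage-like and DC-like cells both BPD tumors lie above all other tumors (-0.72 and -0.11 in monocyte/macrophage-like cells), and in neutrophil-like cells the BPD tumors (-2.01 and -2.09) lie within the range of the free R848 tumors.

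Agonist and antagonist were also counted together in single cells after thinning. Cells with an agonist UMI and no Il1rn UMI were 28.8% of monocyte/macrophage-like cells in saline, 33.9% after free R848 and 19.2% after BPD, as means over tumors. Cells with Il1rn and no agonist were 11.9%, 11.6% and 24.3%, and cells with both 39.3%, 29.3% and 26.6%. Cells with Il1rn alone were thus a larger share in BPD tumors, and these shares were not tested. In neutrophil-like cells the log2 ratio was -2.43, -1.97 and -2.09 after free R848 and -2.01 and -2.09 after BPD, and the groups overlapped.

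In DC-like cells, Il6 and Il27 rose after BPD relative to free R848, and relative to saline Il6, Il27 and Il1rn rose while Il1b, Nlrp3 and Osm fell. For BPD over free R848, 2 of the 8 members tested were called, both higher, against 1.67% of the 6159 genes tested. For free R848 over saline, edgeR called 0 of 8, against 0.99% of genes, and 3 had an unadjusted p under 0.05, against 16.3% of genes. DESeq2 called 1 there, Nlrp3, and 1.85% of genes. For BPD over saline, 6 of 8 were called, against 15.6% of genes. Il6 and Il27 are in both counts and passed the filter on low counts only through the BPD tumors, so the counts are descriptions. Of the 6 other members tested, 0 were called for BPD over free R848 and 4 for BPD over saline. Without saline tumor 2, which held 31 DC-like cells, 3, 0 and 6 members were called in the same order, against 1.99%, 1.78% and 15.6% of genes. Without BPD tumor 1, which leaves 1 BPD tumor, 2 were called for BPD over saline, against 5.77% of genes, and the adjusted p was 0.07 for Il1b, 0.0605 for Il27, 0.0542 for Nlrp3 and 0.179 for Osm. Without saline tumor 3 it was 0.0506 for Osm, and Osm was called under 16 of 20 alternatives, Il1b and Nlrp3 under 18 and Il1rn under 19. Il10 and Csf1 had too few UMIs in this class to be tested.

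Il6, which promotes acute-phase and T cell responses, was at 8.97, 5.59 and 12.2 CPM in the saline tumors, 38.1, 27.5 and 25.2 after free R848 and 105 and 119 after BPD. These levels rest on 8, 1 and 4 UMIs in the saline, 12, 11 and 10 in the free R848 and 79 and 39 in the BPD tumors. The 3 groups did not overlap and stood in the order saline, free R848, BPD. Its log2 fold change was 1.89 ± 0.30 (SE, adjusted p = 0.00635) for BPD over free R848, 3.54 ± 0.36 (SE, adjusted p = 0.000102) for BPD over saline and 1.64 ± 0.41 (SE, adjusted p = 0.0614) for free R848 over saline. After thinning to 1000 UMIs, Il6 was detected in 0.388% of DC-like cells in saline, 3.87% after free R848 and 9.29% after BPD, against 0.169%, 0% and 0.238% of NK-like cells.

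Il27 was at 5.603, 0 and 18.3 CPM in the saline tumors, 3.17, 22.5 and 10.1 after free R848 and 84.02 and 70.2 after BPD. The UMIs behind these levels were 5, 0 and 6 in saline, 1, 9 and 4 after free R848 and 63 and 23 after BPD. Both BPD tumors stood above the other 6. For this gene the fitted log2 change was 2.62 ± 0.54 (SE, adjusted p = 0.0275) for BPD over free R848 and 3.22 ± 0.58 (SE, adjusted p = 0.00213) for BPD over saline. Its partner subunit Ebi3 was at 56.03, 22.4 and 42.8 CPM in the saline tumors, 44.4, 69.9 and 75.6 after free R848 and 197 and 94.6 after BPD, with a log2 fold change of 1.72 ± 0.35 (SE, adjusted p = 0.0044) for BPD over saline and 1.23 ± 0.34 (SE, adjusted p = 0.0916) for BPD over free R848. The call on Ebi3 was thus made against saline and not against free R848.

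Both genes entered the DC-like test only through the BPD tumors: the filter on low counts asked for 27.6 CPM in at least 2 tumors, which both BPD tumors met for each gene, against 1 free R848 tumor for Il6 and no other tumor for Il27. A gene that passes in this way has to differ, so the calls on both genes, over free R848 and over saline, are descriptions and no support. With no filter on low counts, where 2.17% of the genes tested were called, the log2 fold change for BPD over free R848 was 1.89 (adjusted p = 4.24e-05) for Il6 and 2.61 (adjusted p = 3.89e-06) for Il27. The calls on Il6 and Il27 for BPD over free R848 rest on 2 BPD tumors. Without either one, the arm holds 1 tumor and its spread is taken from the other groups. Without BPD tumor 1 the adjusted p was 0.0565 for Il6 and 0.312 for Il27, and without BPD tumor 2 0.0579 and 0.104. Without free R848 tumor 3 it was 0.121 for Il27. Cells gated one by one from the markers gave 1.78 (adjusted p = 0.345) for Il6 and 1.77 (adjusted p = 0.317) for Il27.

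Il1rn was at 193, 548 and 397 CPM in the saline tumors, 552, 449 and 444 after free R848 and 1036 and 1159 after BPD, and the 2 BPD tumors were the highest of the 8. It was detected in 17.7%, 26.3% and 50.6% of thinned DC-like cells (mean over tumors). The log2 fold change was 1.58 ± 0.32 (SE, adjusted p = 0.00403) for BPD over saline and 1.19 ± 0.31 (SE, adjusted p = 0.0746) for BPD over free R848. Over the alternatives the change over saline ranged from 0.69 to 1.91. Il1b was at 4034, 3231 and 5789 CPM in the saline tumors, 2639, 3057 and 3309 after free R848 and 2007 and 1998 after BPD, and the 2 BPD tumors were the lowest. Its log2 fold change was -1.13 ± 0.24 (SE, adjusted p = 0.00543) for BPD over saline and -0.58 ± 0.24 (SE, adjusted p = 0.276) for BPD over free R848. The log2 ratio of Il1rn to the agonists was -4.39, -2.57 and -3.88 in saline tumors, -2.27, -2.77 and -2.90 after free R848 and -0.98 and -0.85 after BPD. Both BPD tumors were above all others, by 1.73 over the free R848 mean (exact permutation p = 0.1, the smallest possible) and 2.70 over the saline mean (exact permutation p = 0.1).

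Nlrp3 was at 248, 235 and 312 CPM in the saline tumors, 76.1, 112 and 149 after free R848 and 42.7 and 101 after BPD. Every R848-treated tumor was below every saline tumor, and the log2 fold change was -2.01 ± 0.36 (SE, adjusted p = 0.00203) for BPD over saline and -1.23 ± 0.30 (SE, adjusted p = 0.0551) for free R848 over saline. Osm was at 204, 139.8 and 257 CPM in the saline tumors, 194, 252 and 131 after free R848 and 74.7 and 97.6 after BPD, with the 2 BPD tumors the lowest. Its log2 fold change was -1.29 ± 0.31 (SE, adjusted p = 0.0119) for BPD over saline and -1.18 ± 0.31 (SE, adjusted p = 0.079) for BPD over free R848. Tnf was at 52.7, 67.1 and 159 CPM in the saline tumors, 34.9, 82.4 and 25.2 after free R848 and 74.7 and 113 after BPD. Il1a was at 13.4, 16.8 and 42.8 CPM in the saline tumors, 28.6, 7.49 and 5.04 after free R848 and 33.3 and 91.5 after BPD. For both, the BPD tumors overlapped the saline tumors, and neither was called in the main fit. Over the alternatives, Tnf was called for BPD over saline under 1 of 20. Il1a was called there under 1 of 18, and for BPD over free R848 under 2 of 18.

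**Figure D5:**
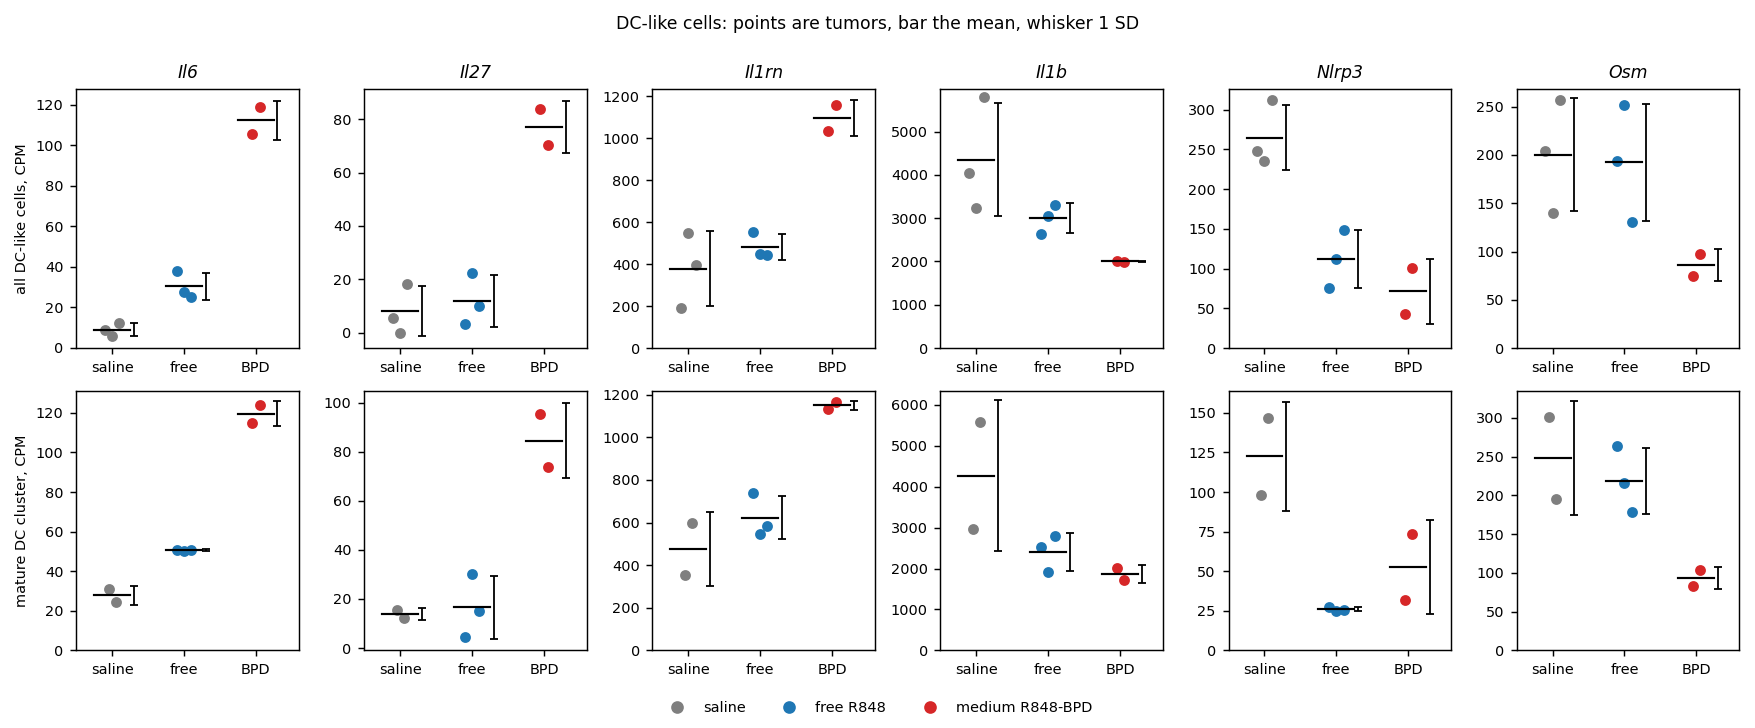
Level of 6 members as CPM in all DC-like cells (top) and in the mature DC cluster (bottom), with 1 point per tumor, a line at each group mean and a whisker of 1 SD. Among all DC-like cells, Il6 (105 and 119 CPM) and Il27 (84.02 and 70.2 CPM) are highest in the 2 BPD tumors, and Il1b is lowest there (2007 and 1998 CPM).

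The DC-like class held a cluster named from cDC2 markers and a cluster named from mature DC markers (Ccr7, Fscn1, Ccl22 and others), and the cells in each differed in number between treatments. The mature cluster held 35, 8 and 28 of the cells of the saline tumors, 36, 43 and 39 of the free R848 tumors and 107 and 63 of the BPD tumors, while the cDC2-like cluster held 137, 23 and 85 cells in saline, 12, 39 and 41 after free R848 and 16 and 8 after BPD. A first clustering of all cells had set apart 72 cells by cDC1 markers (54 from saline, 12 from free R848 and 6 from BPD tumors), of which 70 lay in the cluster named from cDC2 markers here. The mature cluster was thus the larger part in BPD tumors and the smaller part in saline tumors. Within the mature cluster alone, Il6 was at 31.1 and 24.5 CPM in saline tumors 1 and 3, 50.7, 50.1 and 50.9 after free R848 and 115 and 124 after BPD. Saline tumor 2 had 8 cells there and was left out of this fit. The log2 fold change was 1.18 (adjusted p = 0.0834) for BPD over free R848 and 1.95 (adjusted p = 0.0267) for BPD over saline, so the first call was lost and the second kept. Il27 was at 15.5 and 12.2 CPM in those saline tumors, 4.61, 30.05 and 15.3 after free R848 and 95.3 and 73.7 after BPD, with 2.31 (adjusted p = 0.0377) for BPD over free R848. In this fit too, Il27 passed the filter on low counts only through the BPD tumors, so that call is a description and no support. Osm was called for BPD over free R848 in this cluster (-1.30, adjusted p = 0.0265), and for BPD over saline Il1b (-1.28, adjusted p = 0.0134), Il1rn (1.24, adjusted p = 0.0213) and Osm (-1.57, adjusted p = 0.0107) were called. Of the genes tested in this cluster, 1.27% were called for BPD over free R848 and 2.58% for BPD over saline. Nlrp3 was not called there, with a log2 fold change of -1.33 (adjusted p = 0.189) for BPD over saline, and was at 98.4 and 147 CPM in saline tumors 1 and 3, 27.7, 25.04 and 25.4 after free R848 and 31.8 and 73.7 after BPD. In the cDC2-like cluster Nlrp3 was at 289, 267 and 366 CPM in saline, 183, 199 and 269.6 after free R848 and 123 and 377 after BPD, so that the groups overlapped, with 11 UMIs in each BPD tumor.

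Markers of other cells also moved with treatment in the DC-like class. The summed level of 8 neutrophil markers was 21.3 to 42.8 CPM in saline, 22.7 to 53.9 after free R848 and 288 to 693 after BPD, with up to 6, 5 and 1 of the 8 at 0 in a tumor. The 8 NK markers summed to 61.5 to 88.6, 85.7 to 155 and 263 to 662 CPM. Their part in the results was not tested. In neutrophil-like cells, Il1rn was at 1753 to 4024 CPM, and Il6 was listed at 0 in all 5 tumors, in which 3 UMIs correspond to 18.9 to 41.9 CPM. The 6 fibroblast markers summed to at most 25.4 CPM in any tumor.

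In MC38-like cells, Il1b fell after BPD. For BPD over free R848, 1 of the 7 members tested was called, against 0.33% of the 10896 genes tested, for free R848 over saline 0 (2 at an unadjusted p under 0.05, against 7.87% of genes, and 0 by DESeq2), against 0% of genes, and for BPD over saline 3, against 1.12%. Il1b was at 199.6, 199 and 132 CPM in the saline tumors, 135, 120.4 and 128 after free R848 and 39.3 and 42.1 after BPD. The BPD tumors were below all others, with a log2 fold change of -1.63 ± 0.18 (SE, adjusted p = 0.00326) over free R848 and -2.12 ± 0.18 (SE, adjusted p = 0.000191) over saline. The macrophage markers of these cells summed to 355 to 1542 CPM in saline, 259 to 842 after free R848 and 187 to 231 after BPD, so they too were lowest in BPD tumors, and their part was not tested. Csf1, the member with most of its UMIs in this class, was at 177, 195 and 146 CPM in the saline tumors, 199, 219.6 and 206 after free R848 and 260.1 and 313 after BPD. Both BPD tumors were the highest of the 8, and the log2 fold change was 0.73 ± 0.14 (SE, adjusted p = 0.0318) over saline and 0.48 ± 0.14 (SE, adjusted p = 0.139) over free R848. Il1rn was called lower for BPD over saline (-1.10, SE 0.21, adjusted p = 0.0353). Under 12 alternative settings, the Il1b calls were made in 12, the Csf1 call in 7 and the Il1rn call in 5. No setting removed doublets or shared barcodes from MC38-like cells. Leaving out 1 tumor ended the Csf1 call without free R848 tumors 2 and 3, BPD tumor 2 and saline tumors 1 and 3 (adjusted p = 0.0565 to 0.236), and the Il1rn call without free R848 tumors 2 and 3, BPD tumor 2 and each saline tumor (adjusted p = 0.0527 to 0.259). The remaining members tested here were Il1a, Tnf, Osm and Nlrp3, and none was called. Il6, Il10 and Il27 had too few UMIs to be tested in MC38-like, T-like and NK-like cells, as had Csf1 in NK-like cells.

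No member was called in T-like cells (7 tested, Il1a, Il1b, Il1rn, Tnf, Osm, Csf1 and Nlrp3) or NK-like cells (6 tested, Il1a, Il1b, Il1rn, Tnf, Osm and Nlrp3) in any comparison, by edgeR or by DESeq2. At an unadjusted p under 0.05 there were 2, 0 and 2 members in T-like cells and 3, 4 and 1 in NK-like cells for BPD over free R848, free R848 over saline and BPD over saline. At that unadjusted level stood 7.21%, 5.34% and 5.79% of all genes in T-like and 9.17%, 5.17% and 10.5% in NK-like cells. Of all genes tested in T-like cells, 0.0142%, 0% and 0.0568% were called, and in NK-like cells 0.411%, 0.047% and 0.975%. In T-like cells Il1b lay between 419 and 1328 CPM, where the 10 macrophage markers summed to 1653 to 8959 CPM. In NK-like cells Il1b was at 84.2, 59.9 and 243 CPM in the saline tumors, 49.1, 71.01 and 54.8 after free R848 and 140.0 and 134 after BPD. Nlrp3 was at 4.59, 12.6 and 14.5 CPM in the saline tumors, 2.23, 5.92 and 2.03 after free R848 and 17.1 and 25.96 after BPD there.

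Whether the change from free R848 to BPD differed between classes was tested as the class-by-treatment term, with monocyte/macrophage-like cells as the reference and the tumor as a block. For Il6 the difference in log2 fold change between DC-like and monocyte/macrophage-like cells was 1.37 ± 0.54 (SE, adjusted p = 0.446), and for Il27 2.22 ± 0.71 (SE, adjusted p = 0.324), so neither was shown to respond differently in the 2 classes. For Il1b the term was 0.03 ± 0.27 (SE, adjusted p = 1). Of 40 terms over 4 classes, 2 were called, both in NK-like cells, where 0.477% of the 10905 genes tested were called (against 0.278% for the DC-like, 0.0832% for the T-like and 0.721% for the MC38-like class): Il1b (1.82, SE 0.37, adjusted p = 0.0315) and Nlrp3 (2.96, SE 0.60, adjusted p = 0.0315). The NK-like levels behind them rested on 2, 5 and 1 Nlrp3 UMIs after free R848 and 32 and 6 after BPD. The 32 and 6 UMIs lay in 3 of 210 and 3 of 44 cells, and the free R848 UMIs in 2 of 88, 3 of 120 and 1 of 63 cells. The Il1b term was called in 4 of 8 fits that left out 1 tumor and the Nlrp3 term in 3 of 8.

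In neutrophil-like cells, which got no test, the free R848 and BPD tumors overlapped for Il1a, Il1b, Il1rn, Tnf, Il27, Csf1 and Nlrp3, and Il6 was listed at 0. Il10 was at 23.04, 27.9 and 18.9 CPM after free R848 and 10.7 and 0 after BPD, without overlap, from at most 3 UMIs per tumor. Osm was at 691, 852 and 976 CPM after free R848 and 268 and 310.4 after BPD, and the groups did not overlap. With so few tumors, groups can separate by chance, and the share of all genes that did so was not computed. The separations of Il10 and Osm are therefore descriptions. For Tnf the values were 587, 699 and 982 CPM and 814 and 671 CPM, and for Il1rn 1786, 2501 and 4024 CPM and 2517 and 1753 CPM, with overlap in both. Saline tumors held 3, 0 and 5 such cells, too few for a level.

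The receptors and regulators of these cytokines were followed in a pathway list of 56 genes. In monocyte/macrophage-like cells, 51 were tested, and 2 rose and 1 fell for BPD over free R848, which is 5.88% against 1.59% of all genes. For free R848 over saline 0 were called, against 0.0189% of all genes, and for BPD over saline 3 rose and 8 fell, 21.6% against 7.03% of all genes. Il1r1 is among the genes that rose in both comparisons and passed the filter on low counts only with the BPD tumors counted, so these shares are descriptions. Without it, 1 gene rose and 1 fell for BPD over free R848, and 2 rose and 8 fell for BPD over saline. The median log2 fold change of the list was -0.10, -0.11 and -0.32 in the 3 comparisons.

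Il1r1, the signaling receptor of the interleukin-1 agonists and of the antagonist, was at 0.959, 0.765 and 3.34 CPM in the saline tumors, 1.49, 1.16 and 1.52 after free R848 and 15.9 and 27.6 after BPD. Both BPD tumors stood well above the rest, with a log2 fold change of 3.99 ± 0.53 (SE, adjusted p = 0.0126) over free R848 and 3.92 ± 0.52 (SE, adjusted p = 0.00499) over saline. Il1r1 passed the filter on low counts (2.44 CPM in at least 2 tumors) only with the BPD tumors counted, since 1 saline tumor and no free R848 tumor reached it, and its call is given as a description. The 3 groups held 18, 15 and 164 UMIs in the order saline, free R848, BPD. The level was low, and a UMI was found in 108 of 1224 monocyte/macrophage-like cells of BPD tumors, 13 of 1758 of free R848 tumors and 16 of 2393 of saline tumors. Fibroblast-like cells, most of which came from BPD tumors, had 641 CPM of Il1r1. The 6 fibroblast markers summed to 10.02 to 18.5, 14.9 to 23.9 and 27.4 to 45.3 CPM in monocyte/macrophage-like cells of saline, free R848 and BPD tumors, and 0 of the 108 cells with Il1r1 held 3 or more of them. Il1r2, the decoy receptor that binds the agonists without signaling, was at 184, 76.1 and 200.4 CPM in the saline tumors, 97.4, 53.99 and 80.5 after free R848 and 31.3 and 31.3 after BPD. It was lowest in the 2 BPD tumors, and fell relative to saline (-2.27, SE 0.45, adjusted p = 0.0219).

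Irak3, an inhibitor of signaling from the interleukin-1 and Toll-like receptors, was at 40.8, 36.6 and 50.8 CPM in the saline tumors, 51.4, 47.01 and 53.9 after free R848 and 165 and 138 after BPD. The BPD tumors stood apart from the other 6, and the log2 fold change was 1.62 ± 0.17 (SE, adjusted p = 0.00456) over free R848 and 1.87 ± 0.17 (SE, adjusted p = 0.00117) over saline. Il10ra, the ligand-binding chain of the interleukin-10 receptor, fell relative to free R848 (-1.08, SE 0.15, adjusted p = 0.0155), from 244, 194 and 194 CPM after free R848 to 105 and 88.7 CPM after BPD. Csf1r, the CSF1 receptor, was at 1204, 1258 and 989 CPM in the saline tumors, 803, 903 and 759 after free R848 and 567 and 437 after BPD, and fell relative to saline (-1.17, SE 0.16, adjusted p = 0.00544). The groups of Csf1r values did not overlap and stood in the order saline, free R848, BPD. Rel, an NF-kB subunit (-1.22, SE 0.27, adjusted p = 0.0304), and Icam1, an adhesion molecule induced by NF-kB (-1.07, SE 0.19, adjusted p = 0.0151), were the other genes named by size that fell relative to saline. Ebi3 was at 25.9, 33.99 and 25.6 CPM in the saline tumors, 39.01, 39.6 and 43.6 after free R848 and 57.4 and 43.4 after BPD, and rose relative to saline (0.85, SE 0.16, adjusted p = 0.0158).

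The receptors for TNF and interleukin-6 were not called in this class. For BPD over free R848 the log2 fold change was 0.03 ± 0.20 (SE, adjusted p = 0.967) for Tnfrsf1a, 0.69 ± 0.31 (SE, adjusted p = 0.358) for Tnfrsf1b and -0.14 ± 0.14 (SE, adjusted p = 0.708) for Il6ra. Osmr and Il27ra were near the detection limit and were not tested. In DC-like cells, 42 of the 56 genes were tested. For BPD over free R848 none rose and 1 fell (Csf2ra, -1.37), where 1.67% of all genes were called. For free R848 over saline none rose and 1 fell, where 0.99% of all genes were called. For BPD over saline 9 rose and 6 fell, which is 35.7% against 15.6% of all genes. Il1r2 fell there as well (-2.28, SE 0.39, adjusted p = 0.00161), as did Csf1r (-1.80, SE 0.28, adjusted p = 0.000921) and Tnfrsf1a (-0.86, SE 0.24, adjusted p = 0.0251), and Irak3 rose (2.16, SE 0.48, adjusted p = 0.00728).

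Across the 49 sums per tumor and class, the genes whose log2 level was most like that of Il1b among 6862 genes were Plbd1 (Pearson r = 0.96), Themis2 (0.96) and Slc15a3 (0.95). For Il1rn they were Itgam (0.95), Ms4a6d (0.95) and Tlr13 (0.95), and for Tnf Clec4e (0.94), Ccl3 (0.93) and Tpd52 (0.92). Among the members themselves, Il1b was most like Nlrp3 (0.95), and had r of 0.91 with Il1rn and Osm, 0.07 with Il6 and 0.05 with Csf1. The sums share tumors, libraries and depth, and the values are given as a description.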

How the data were processed

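Single-cell libraries were made with Seq-Well from 8 MC38 tumors, and reads were demultiplexed (bcl2fastq) and aligned to mm10 according to the submitters' processing notes and the study's methods; the aligner and annotation are not given in the sources used here. The authors deposited 1 table per tumor, holding UMI counts as whole numbers with genes in rows and barcodes in columns and no normalization. Cells with 400 to 10000 genes, at most 50000 UMIs and at most 15% mitochondrial UMIs were kept, after the study's methods. MC38-like cells were separated by a first clustering, and the others were clustered again (Seurat 5.3.0, resolution 1.3, 30 principal components, the number raised from 11 after seeing that neutrophil-like cells had merged with others). Members and pathway genes were left out of the variable genes. Scrublet (scanpy 1.11.5) marked 79 doublets, which were kept. They were removed as an alternative only in monocyte/macrophage-like and DC-like cells, which held 2 and 5 of them. MC38-like cells held 45 and T-like cells 23. Cells with shared barcodes were likewise removed only in monocyte/macrophage-like and DC-like cells. No cluster met the rule for poor quality, and 0 cells were removed for it. UMIs were summed per tumor and class (at least 10 cells) and tested with edgeR 4.0.16 (TMM, filterByExpr, quasi-likelihood F test, the 3 treatments in 1 fit); DESeq2 1.42.0 was an alternative. The tumor is the replicate. The steps were tested on simulated data. Shares of cells were compared by exact permutation after thinning with a fixed seed. Levels covering few UMIs carry counting error beyond the spread between tumors.

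The members and gene lists were chosen with earlier results of these data known. All 10 members were followed in every tested class, and those with too few UMIs to be tested are named there. Pathway genes are named if called for BPD over free R848 in monocyte/macrophage-like cells, by size of change for the other comparisons, or as receptors or partner of a member.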

Additional observations from a re-analysis of the deposited data

Results flagged for a closer look

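For 2 members the change from free R848 to BPD differed between NK-like and monocyte/macrophage-like cells by a test of the difference itself (edgeR quasi-likelihood F test of the class-by-treatment term, Benjamini-Hochberg adjusted over all genes tested), a term called for 0.477% of the 10905 genes tested. For Il1b the difference in log2 fold change was 1.82 (SE 0.37, adjusted p = 0.0315): Il1b was higher in both NK-like BPD samples (140.0 and 134 CPM) than in the 3 free R848 samples (49.1, 71.01 and 54.8 CPM), the opposite order to monocyte/macrophage-like cells. For Nlrp3 the difference was 2.96 (SE 0.60, adjusted p = 0.0315), from 2.23, 5.92 and 2.03 CPM after free R848 to 17.1 and 25.96 CPM after BPD. These values rest on a few cells: without thinning, Nlrp3 was found in 3 of 210 and 3 of 44 cells of the BPD tumors and in 2 of 88, 3 of 120 and 1 of 63 cells of the free R848 tumors. Neither gene was called within NK-like cells alone. After thinning to 1000 UMIs, the share of NK-like cells with Il1b was 1.67% to 7.94% after free R848 and 3.33% to 6.82% after BPD, so the groups overlapped, and Nlrp3 was found in 0% of cells of both groups. The summed level of the 8 neutrophil markers in NK-like cells was 1.58 to 4.82 CPM in saline tumors, 2.03 to 18.96 after free R848 and 99.5 to 101 after BPD, with up to 7, 7 and 4 of the 8 markers at 0 in a tumor, and its part in these differences was not tested. Leaving out each tumor in turn kept the Il1b call in 4 of 8 fits and the Nlrp3 call in 3 of 8.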

How the results depend on the processing

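Of 183 alternative values for the main counts and ratios, 149 were kept, 33 moved and 1 changed sign. A count was kept if of similar size and a ratio if of the same sign. The remaining values were fold changes, class-by-treatment terms, shares of cells and counts of all genes called, and 1175 of them were kept. For a fold change that means the same sign and call, whatever the size. Among these values 53 gained a call, 41 lost one and 36 changed sign, and 60 counts of all genes called moved. In monocyte/macrophage-like cells, members called for BPD over free R848, free R848 over saline and BPD over saline (0, 0 and 0) became 4, 7 and 7 with no filter on low counts, 1 for the first when only its 2 treatments were fitted, and 4 for the third by DESeq2. Leaving out each tumor gave 0 to 1, 0 to 4 and 0 to 6. In DC-like cells (2, 0 and 6), the first became 6 with no filter, 1 with the replicate number as a block and 0 under the cell-by-cell marker gate, the second 1 by DESeq2, 2 with no filter and 1 with only 2 treatments fitted. The third was at most 7 in any alternative. For the first, all genes called went from 103 to 340 with no filter and 4 under the gate. Other counts of all genes called are given below. Leaving out each tumor gave 0 to 4, 0 to 1 and 2 to 6. The 4 calls in the remaining classes became 21 with no filter and 2 to 9 without 1 tumor, where 0.359% of all genes became 1.47% and 0.144% to 1.37%. The 2 class-by-treatment calls became 0 to 6 without 1 tumor, where 0.399% of all genes became 0.0698% to 1.42%. The cause of these shifts was not tested. Il6 kept its call for BPD over free R848 in DC-like cells under 16 of 20 alternatives (1.18 to 3.23 on the log2 scale) and Il27 under 14 of 19 (1.77 to 3.42). Both genes entered the main DC-like test only through the BPD tumors, so these recurring calls are descriptions and no support. Il1b kept its call in MC38-like cells under 12 of 12.

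Signs changed for values near 0 and, in DC-like cells, for some that were not. In the main fit Nlrp3 was -0.78 and Tnf 0.92 for BPD over free R848, and Il1a was 1.34 for BPD over saline. In monocyte/macrophage-like cells, Il10 for BPD over free R848 was 0.22 with the replicate block, Il6 for free R848 over saline 0.13 in macrophage-like clusters only, and for BPD over saline under the marker gate Il1rn was -0.0058 and Il6 -0.21. In DC-like cells, Tnf for BPD over free R848 was -0.16 with equal cells per tumor, Nlrp3 0.85 in the mature cluster only, and Il1rn for free R848 over saline -0.45 under the marker gate. For BPD over saline there, Il1a was -0.040 under the marker gate, and Tnf -0.0043 by DESeq2, -1.22 under the marker gate, -0.019 at resolution 0.8 and -0.81 with equal cells. Without 1 tumor, log2 fold changes that crossed 0 ranged, in monocyte/macrophage-like cells, over -0.37 to 0.13 (Il10) and -0.14 to 0.88 (Il27) for BPD over free R848, -0.20 to 0.46 (Il27) and -1.03 to 0.051 (Il6) for free R848 over saline, and -0.29 to 0.59 (Il1rn) and -0.53 to 0.58 (Il6) for BPD over saline. In DC-like cells they ranged over -0.21 to 1.42 (Il27) and -0.36 to 0.11 (Osm) for free R848 over saline and -0.42 to 0.68 (Tnf) for BPD over saline. The log2 ratio of Il1rn to its agonists for free R848 over saline ranged over -0.03 to 0.27. The difference in percent of cells for BPD over free R848 ranged over -0.049 to 0.83 for Il6, -0.25 to 0.42 for Il27 and -0.97 to 0.052 for Csf1, and was -0.029 for Il6 at 2000 UMIs and -0.15 for Il27 at 500 UMIs.

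All genes called in monocyte/macrophage-like cells were 168 for BPD over free R848, and 366 by DESeq2, 936 with no filter, 68 with the block, 484 with 2 treatments and 16 to 586 without 1 tumor. For free R848 over saline the 2 genes became 38, 552, 0, 0 and 1 to 121 in the same order, with 1 under the marker gate. For BPD over saline the 745 became 1740 with no filter, 395 with the block, 156 with 2 treatments and 88 to 1243 without 1 tumor. In DC-like cells the 103 for BPD over free R848 became 340 with no filter, 38 with the block, 4 under the marker gate, 52 in the mature cluster and 16 to 262 without 1 tumor, and the 61 for free R848 over saline 114 by DESeq2, 348 with no filter, 16 with the block, 0 under the marker gate, 122 with all variable genes, 1 with equal cells, 10 in the mature cluster and 1 to 115 without 1 tumor. The 958 for BPD over saline became 360 under the marker gate, 556 with equal cells, 106 in the mature cluster and 375 to 1130 without 1 tumor. Replicate numbers did not pair the tumors: the correlation of deviations in same-numbered tumors was 0.06 for free R848 1 and BPD 1, -0.27 for free R848 1 and saline 1 and 0.21 for free R848 3 and saline 3. With the block, 0, 0 and 0 members were called in monocyte/macrophage-like cells. Keeping poor-quality cells gave the same clusters, since none met that rule. Leaving out a BPD tumor leaves that arm with 1 tumor, which is then taken to vary like the other groups. The fits without shared barcodes, without the shallowest cluster and in the mature DC cluster only, and the alternatives for T-like, NK-like and MC38-like cells, were chosen after seeing the data. With 2 BPD tumors, exact tests could not reach a p under 0.1, and Il6 and Il27 rest on few UMIs.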
